A study of Mus musculus with 40 samples.

Results

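The genes described here are 9 members of retinoid metabolism and signalling in the mouse kidney: the retinaldehyde dehydrogenases Aldh1a1, Aldh1a2, Aldh1a3 and Aldh1a7, the retinol carrier Rbp4, the retinol and retinaldehyde oxidoreductases Rdh10 and Dhrs3, the retinoic acid receptor Rarb and the retinoic acid hydroxylase Cyp26b1. They are 9 of the 28467 genes of the bulk table and of the 32285 genes of the nucleus table, and all 9 are listed in both. They were listed by name and chosen by measured values: the higher level of Aldh1a7 at 24 h after nephrectomy in bulk kidney and in nuclei. For the members, the 24 h contrasts in both assays are therefore given as a description with no p-value, and tests are given at 48 h and 72 h and for the difference between those times. Other genes of the pathway, which are no members, are tested at all 3 times.

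The study compared the right kidney of male C57BL/6 mice aged 8 to 12 weeks after removal of the left kidney (unilateral nephrectomy, UNx) or after a sham operation in which no kidney was removed. All mice, shams included, had isoflurane anaesthesia, buprenorphine and saline. Bulk RNA-seq covered 36 libraries, with 6 per group at 24 h, at 48 h and at 72 h, and single-nucleus RNA-seq covered 2 sham and 2 UNx mice at 24 h, each library from its own mouse. Bulk values are counts scaled to a library size of 1 M counts (CPM). The bulk libraries of 24 h are labelled batch 1 and those of 48 h and 72 h batch 2, so that time and batch cannot be told apart between 24 h and the later times.

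Retinol circulates bound to RBP4 and transthyretin. Retinol bound to RBP4 that passes into the glomerular filtrate is taken back up by proximal tubule cells through megalin. Inside cells, retinol dehydrogenases such as RDH10 oxidise retinol to retinaldehyde and DHRS3 reduces it back. Retinaldehyde dehydrogenases of the ALDH1A family turn retinaldehyde irreversibly into retinoic acid, the ligand of the nuclear receptors RARα, RARβ and RARγ, and CYP26 hydroxylases clear it. Aldh1a7 is a rodent gene next to Aldh1a1, and its product is known as an aldehyde dehydrogenase with weak or no activity on retinaldehyde.

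Because Aldh1a1 and Aldh1a7 are near copies, the sequences that allow their reads to be told apart are shown first. Both lie on chromosome 19 of GRCm38, Aldh1a1 at chr19:20492715-20643465 on the plus strand and Aldh1a7 at chr19:20692953-20727562 on the minus strand. Their coding sequences, 1503 bases each, differed at 126 positions (91.6% identity), while identity with Aldh1a2 or Aldh1a3 lay between 66.9% and 69.1%. The stretch of 90 coding bases with most differences, coding bases 310 to 399 across exons 3 and 4, holds 19 mismatches, in capitals here.
Aldh1a1: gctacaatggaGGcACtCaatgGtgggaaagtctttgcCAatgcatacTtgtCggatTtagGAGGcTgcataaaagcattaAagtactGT
Aldh1a7: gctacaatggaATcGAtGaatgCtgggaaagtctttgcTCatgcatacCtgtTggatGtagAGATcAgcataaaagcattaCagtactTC

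Of all runs of 31 bases in the transcript models, the pair shared 281, which is 13.9% of those of Aldh1a1 and 13.8% of those of Aldh1a7. In their last 500 bases, where the droplet libraries read, they shared 0 of 470. The bulk counts were shared out between transcripts by the authors' estimate, so that each gene's bulk level carries some uncertainty from its copy. The nucleus counts rest on an end that differs.

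The copies also share sequence before their starts, and these bases are shown because the levels of both genes were higher at 24 h. The part of these bases in those levels was not tested. Which of the listed Aldh1a1 starts is used in these kidneys was not tested either. In RefSeq's GRCm38.p6 tables, 1 of the starts listed for Aldh1a1 and the start of Aldh1a7 have 300-base promoter windows that were identical at 76.6% of 282 aligned bases. The last 100 bases before each start are at chr19:20601868-20601967 (plus strand) for Aldh1a1 and chr19:20727557-20727656 (minus strand) for Aldh1a7. Capitals mark identical runs of 12 or more bases, counted over the whole windows, and the longest has 65.
Aldh1a1: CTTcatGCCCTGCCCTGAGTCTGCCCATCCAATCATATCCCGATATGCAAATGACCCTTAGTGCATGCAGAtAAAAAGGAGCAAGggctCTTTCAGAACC
Aldh1a7: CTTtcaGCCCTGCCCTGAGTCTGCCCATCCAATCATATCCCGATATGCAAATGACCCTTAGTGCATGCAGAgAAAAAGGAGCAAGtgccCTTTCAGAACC

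Promoter windows of the members were searched on both strands for direct repeats of the half-site AGGTCA, with G also allowed as its opening base and T for the middle G of GGT, spaced by 2 or 5 bases, the classic binding pattern of retinoic acid receptors. A repeat spaced by 5 was in 32 of 32851 promoter windows (0.097%) and one spaced by 2 in 88 (0.268%). Among the members found in that table, only a window of Rarb held one, at bases 53 to 37 before a start, shown in capitals in chr14:16575477-16575576 (minus strand, GRCm38.p6). The match is a description of these letters. Rdh10 and Aldh1a3 had no window in that table and so were not searched.
Rarb: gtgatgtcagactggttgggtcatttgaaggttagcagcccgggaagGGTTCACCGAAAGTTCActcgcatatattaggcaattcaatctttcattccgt

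The libraries held 14.9 to 24.1 M estimated counts, and at 48 h they differed in more than the operation. Mitochondrially encoded genes took 25.8% to 26.4% of counts in UNx replicates 1 to 5 of 48 h, but 15.2% in UNx replicate 6 and 14.0% to 15.5% in the 48 h shams. A profile score of 40 pseudogenes, scaled to 1 in the 24 h shams and 0 in the later shams, was 0.716 to 0.803 in those 5 libraries and 0.0175 in replicate 6. At 24 h it was 0.948 to 1.03 in shams and 0.729 to 0.927 in UNx, and at 72 h it was between −0.0668 and 0.151 in all 12 libraries. The labels do not say what sets those 5 libraries apart, and the 48 h values of members called in any fit are given with and without them. The proximal tubule marker sum was 8410 to 12200 CPM over all libraries. Other marker sums differed between sham and UNx medians: connecting tubule at 24 h (320 and 484 CPM), mural at 48 h (88.5 and 130) and fibroblast at 48 h (107 and 69.1). Their part in the members' values was not tested.

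**Figure D1:**
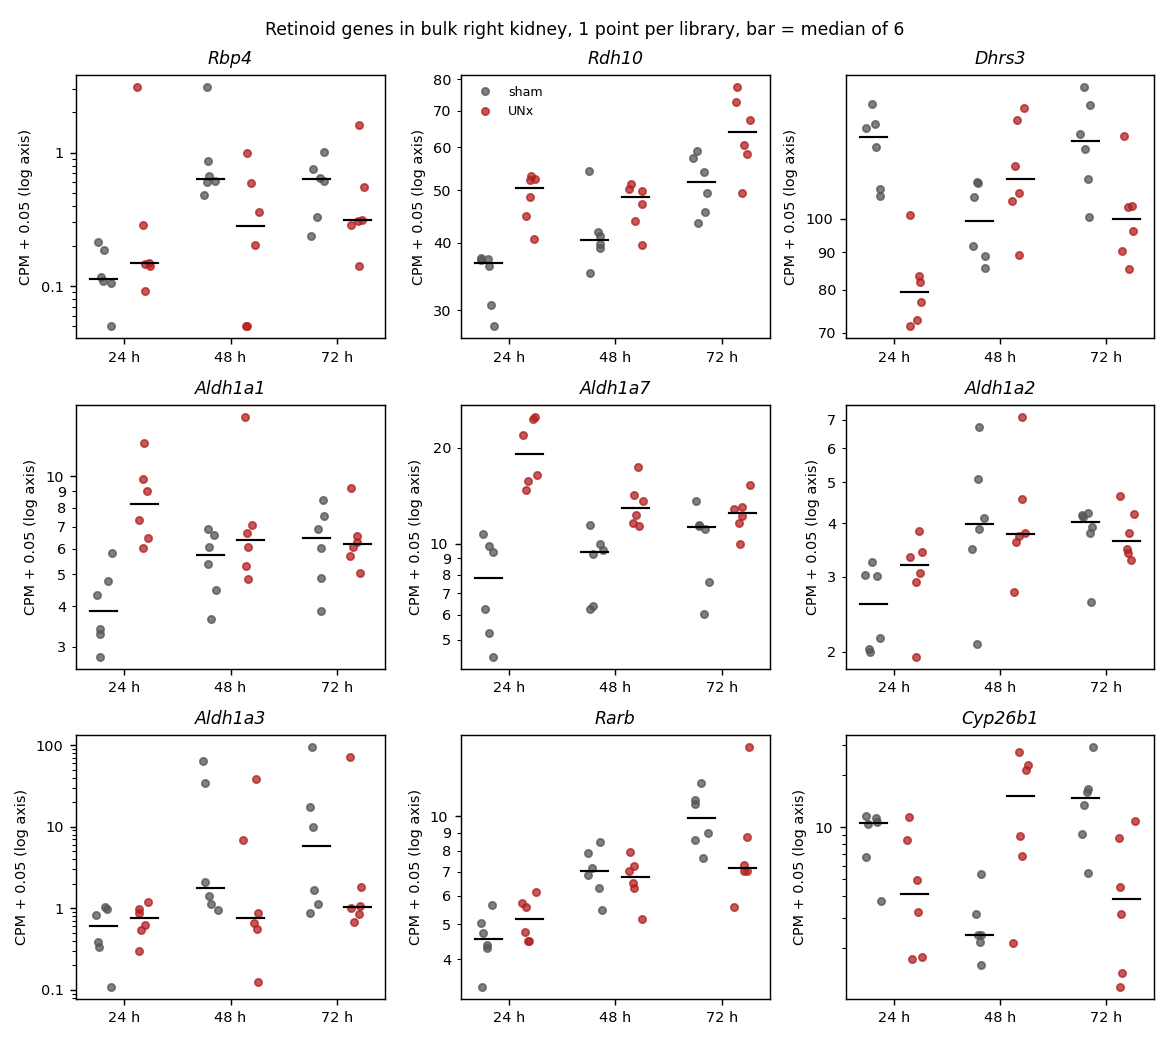
CPM of the 9 genes in each of the 36 bulk libraries (y axes: CPM + 0.05, log axes; x: hours after surgery; grey sham, red UNx; bars are medians of 6). At 24 h the sham and UNx points of Aldh1a1, Aldh1a7, Rdh10 and Dhrs3 do not overlap, while at 72 h all 9 genes overlap.

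Per kb of gene model, Dhrs3 had the highest sham level of the 9 genes, 50.1 ± 8.51 CPM per kb (SD, n = 18 shams of all times). Rdh10 followed with 11.8 ± 1.95, and its range of 8.25 to 15.5 did not reach that of Dhrs3. Aldh1a7 had 4.25 ± 1.18 CPM per kb, above Aldh1a1 with 2.20 ± 0.606. The others were Aldh1a3 (3.63 ± 7.28), Rarb (2.25 ± 0.685), Cyp26b1 (1.95 ± 1.45), Aldh1a2 (1.53 ± 0.505) and Rbp4 (0.460 ± 0.593), and neighbours in the order from Aldh1a7 down overlapped in range. Sham means differed between times, for Aldh1a3 0.175, 5.11 and 5.61 CPM per kb at 24, 48 and 72 h and for Cyp26b1 2.16, 0.626 and 3.06. In bulk tissue, fewer cells of a type and less RNA per cell cannot be told apart, which holds for every level here.

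Rbp4, the plasma carrier of retinol made mainly by liver and fat, was near its detection limit in kidney. At 24 h it was too low to enter the test, with shams at 0 to 0.165 CPM and UNx libraries at 0.0419 to 3.07. At 48 h shams held 0.427 to 3.04 CPM (median 0.587) and UNx libraries 0 to 0.942 (median 0.230), a log2 fold change of −1.65 (SE 0.706) that was not called (edgeR quasi-likelihood test, adjusted p = 0.0849) but was called without UNx replicate 4 (−2.26, edgeR adjusted p = 0.0426). Without sham replicate 3, the library at 3.04 CPM, it was −0.90 (edgeR adjusted p = 0.28), and without UNx replicates 1 to 5 it was −1.68 and not called (edgeR adjusted p = 0.573). At 72 h the log2 fold change was −0.21 (SE 0.563, edgeR adjusted p = 0.896). The highest values sat in single libraries.

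Fat marker RNA was highest in 2 of these libraries. UNx replicate 4 of 24 h, with 3.07 CPM of Rbp4, had a summed adipocyte marker level (Adipoq, Plin1, Cidec) of 199 CPM. Sham replicate 3 of 48 h, with 3.04 CPM, had 97.4, and UNx replicate 5 of 72 h, with 1.55 CPM, had 20.8. The other 33 libraries had 0 to 0.955 CPM of Rbp4 and 0.0419 to 36.8 CPM of the adipocyte list, so that 4 of them (36.8, 31.5, 24.3 and 23.6) were above UNx replicate 5 of 72 h in that list. All 3 adipocyte genes had counts in some libraries. Urothelium marker sums were also highest in UNx replicate 4 of 24 h (43.6 CPM) and sham replicate 3 of 48 h (38.4). They were 22.0 in UNx replicate 5 of 72 h and 0.118 to 32.6 in the other 33. Hepatocyte marker sums of the 3 libraries were 55.7 to 87.4 CPM, inside the 25.5 to 138 of the others. The part of these lists in the Rbp4 values was not tested.

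**Figure D2:**
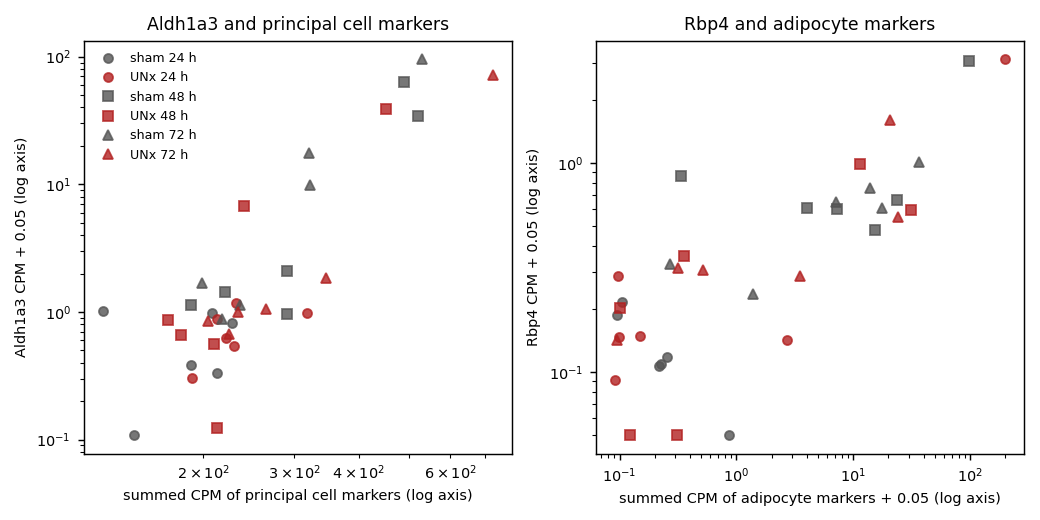
Left, Aldh1a3 against the summed principal cell markers, and right, Rbp4 against the summed adipocyte markers, 1 point per bulk library (all axes log, CPM, with 0.05 added to both genes and to the adipocyte sum; shape gives the time, colour the group). The 5 libraries with Aldh1a3 of 34.5 CPM or more have principal cell sums of 452 or more, and the highest Rbp4 point, UNx replicate 4 of 24 h, has the highest adipocyte sum.

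Rdh10, which oxidises retinol to retinaldehyde, was higher after UNx at 24 h in every library. Shams held 28.0 to 37.4 CPM (median 36.7) and UNx libraries 40.6 to 52.9 (median 50.3), means of 34.4 ± 4.09 and 48.5 ± 5.01 (SD, n = 6). The log2 fold change was 0.49 (SE 0.0852). At 48 h the groups overlapped, with 35.1 to 54.2 CPM (median 40.4) in shams and 39.6 to 51.2 (median 48.4) in UNx. That difference, a log2 fold change of 0.17 (SE 0.0974), was not called (edgeR adjusted p = 0.202), and it was called without sham replicate 1, the library at 54.2 CPM (0.25, edgeR adjusted p = 0.0262).

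At 72 h the Rdh10 shams held 43.4 to 59.0 CPM (median 51.6) and the UNx libraries 49.3 to 77.5 (median 64.0), again overlapping. The log2 fold change of 0.32 (SE 0.107) was not called in edgeR (adjusted p = 0.142), while limma voom called it at 0.35 (adjusted p = 0.0441). Without UNx replicate 6 edgeR called it at 0.39 (adjusted p = 0.0366). Voom also called Rdh10 at 48 h, at 0.24 (adjusted p = 0.0384). Without UNx replicates 1 to 5 the 48 h value in edgeR was 0.0732 (adjusted p = 0.886), and with the profile score within the time point it was 0.0246 (adjusted p = 0.958).

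Dhrs3, which reduces retinaldehyde back to retinol and is itself known as a retinoic acid target, was lower after UNx at 24 h in every library. Shams held 107 to 143 CPM (median 129) and UNx libraries 71.4 to 101 (median 79.5), means of 125 ± 14.3 and 81.3 ± 10.8 (SD, n = 6). The log2 fold change was −0.62 (SE 0.0900). At 48 h the UNx median lay above that of the shams, with shams at 85.7 to 112 CPM (median 99.2) and UNx at 89.1 to 141 (median 113). This log2 fold change of 0.23 (SE 0.112) was not called (edgeR adjusted p = 0.133).

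At 48 h the direction of Dhrs3 rested on UNx replicates 1 to 5. UNx replicate 6 held 89.1 CPM, inside the sham range. Without replicates 1 to 5 the log2 fold change was −0.15, and without replicate 6 it was 0.31 and called (edgeR adjusted p = 0.0211). Limma voom called it on all 12 libraries at 0.29 (adjusted p = 0.0262). At 72 h shams held 101 to 151 CPM (median 127) and UNx libraries 85.5 to 129 (median 99.9), with a log2 fold change of −0.32 (SE 0.109) that was not called (edgeR adjusted p = 0.148).

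Aldh1a7, the gene on whose 24 h level the group was chosen, held 4.38 to 10.7 CPM in the 24 h shams (median 7.76) and 14.7 to 25.0 in the UNx libraries (median 19.1). Means were 7.59 ± 2.66 and 19.7 ± 4.64 (SD, n = 6), a log2 fold change of 1.36 (SE 0.206). No sham reached the lowest UNx library. Its counts per library were 77 to 504, so counting error was small beside the spread.

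At 48 h, which did not choose the members, Aldh1a7 rose after UNx. Shams held 6.19 to 11.4 CPM (median 9.38) and UNx libraries 11.3 to 17.4 (median 12.9), means of 8.78 ± 2.09 and 13.4 ± 2.25 (SD, n = 6). The log2 fold change was 0.61 (SE 0.157, edgeR adjusted p = 0.00985), with 6 of 6 UNx libraries above the sham mean, though the lowest UNx library lay just inside the sham range. The call held in all 12 fits that left out 1 library, at 0.52 to 0.70 (adjusted p between 0.00670 and 0.0258). Without UNx replicates 1 to 5 the value was 0.63, with replicate 6 as the lone UNx library, and was not called (edgeR adjusted p = 0.385). With the profile score as a covariate within the time point it was 0.70 and not called (adjusted p = 0.339).

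At 72 h Aldh1a7 held 5.98 to 13.6 CPM in shams (median 11.2) and 9.91 to 15.3 in UNx libraries (median 12.5). The groups overlapped, and the log2 fold change of 0.29 (SE 0.171) was not called (edgeR adjusted p = 0.413).

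Aldh1a1, whose product is the main retinaldehyde dehydrogenase of many adult tissues, was also higher after UNx at 24 h without overlap. Shams held 2.75 to 5.76 CPM (median 3.81) and UNx libraries 5.99 to 12.6 (median 8.14), means of 4.02 ± 1.12 and 8.50 ± 2.46 (SD, n = 6). The log2 fold change was 1.07 (SE 0.201). At 48 h shams held 3.60 to 6.86 CPM (median 5.68) and UNx libraries 4.78 to 15.2 (median 6.33), and the log2 fold change of 0.45 (SE 0.259) was not called (edgeR adjusted p = 0.195). That value leaned on UNx replicate 1, the library with 15.2 CPM. Without it the log2 fold change was 0.13. At 72 h shams at 3.80 to 8.41 CPM and UNx libraries at 5.01 to 9.17 gave 0.04 (SE 0.188, edgeR adjusted p = 0.936).

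Summed over the pair, which removes the split of shared reads, the mean level went from 11.6 CPM in shams to 28.1 in UNx at 24 h, a log2 fold change of 1.27. At 48 h it rose from 14.2 to 20.8 CPM (log2 fold change 0.55, SE 0.181, edgeR adjusted p = 0.0324). This sum was not refitted without UNx replicates 1 to 5. The 72 h means of 16.4 and 18.9 CPM gave 0.20 and were not called (edgeR adjusted p = 0.497).

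Aldh1a7 made up most of the pair's counts in both groups. Its share was 64.8 ± 3.49% in shams and 70.0 ± 2.31% in UNx libraries at 24 h (SD, n = 6). At 48 h it was 61.6 ± 2.82% and 65.6 ± 6.42%, a difference of 3.99 percentage points (exact two-sided permutation test, p = 0.186, adjusted over both later times 0.327). At 72 h it was 61.7 ± 8.41% and 66.0 ± 5.49%, a difference of 4.29 (exact permutation p = 0.327, adjusted 0.327). At 48 h, fits that left out 1 library gave 2.94 to 6.43 points with exact permutation p between 0.00649 and 0.353, and the highest value came without UNx replicate 1.

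**Figure D3:**
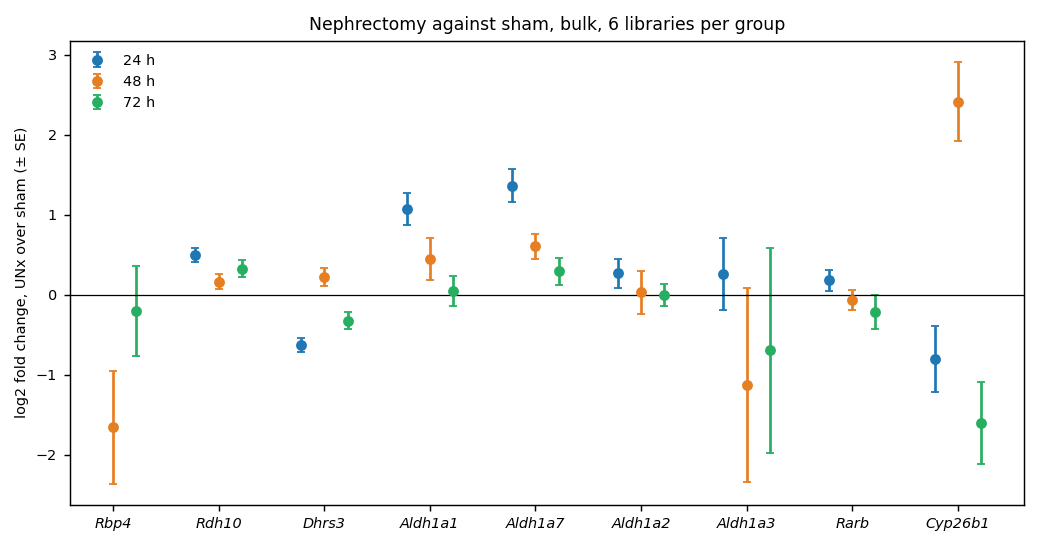
Log2 fold change of UNx over sham (y axis, ± SE) for each gene at 24 h (blue), 48 h (orange) and 72 h (green), 6 libraries per group; Rbp4 at 24 h was too low to fit. Aldh1a7 is at 1.36, 0.61 and 0.29, and Cyp26b1 at −0.80, 2.41 and −1.61.

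Aldh1a2, the retinaldehyde dehydrogenase of embryonic and mesenchymal tissue, showed no called difference. Its 24 h values were 1.95 to 3.20 CPM in shams and 1.90 to 3.80 in UNx (log2 fold change 0.27, SE 0.180). At 48 h shams held 2.03 to 6.66 and UNx libraries 2.71 to 7.06 (0.03, SE 0.264, edgeR adjusted p = 0.938), and at 72 h 2.57 to 4.17 and 3.23 to 4.59 (edgeR adjusted p = 0.992). Groups overlapped at all 3 times.

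Aldh1a3, the third enzyme of the family that makes retinoic acid, varied widely within groups at 48 h and 72 h. At 24 h shams held 0.0590 to 0.976 CPM and UNx libraries 0.251 to 1.13. At 48 h shams held 0.911 to 63.8 (median 1.72) and UNx libraries 0.0732 to 38.7 (median 0.714), with a log2 fold change of −1.13 (SE 1.21, edgeR adjusted p = 0.491). At 72 h the ranges were 0.834 to 95.0 (median 5.75) and 0.620 to 72.0 (median 0.980), with −0.70 (SE 1.28, edgeR adjusted p = 0.839). A few libraries of either group set these ranges.

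These libraries also had the highest summed RNA of markers of principal cells (Aqp2, Aqp3, Scnn1g) and mesothelium (Msln, Upk3b, Lrrn4). The range of the principal cell sum came mostly from Aqp2. Over all libraries it spanned 35.8 to 549 CPM, beside 59.3 to 134 for Aqp3 and 28.7 to 49.4 for Scnn1g. Sham replicate 5 and UNx replicate 6 of 72 h, with 95.0 and 72.0 CPM of Aldh1a3, had principal cell sums of 531 and 726 CPM and mesothelium sums of 16.7 and 16.3. Sham replicates 1 and 3 of 48 h, with 63.8 and 34.5 CPM, had principal cell sums of 488 and 520, and UNx replicate 2 of 48 h, with 38.7 CPM, had 452. The other 31 libraries held 0.0590 to 17.4 CPM of Aldh1a3, 128 to 346 CPM of the principal cell list and 0.293 to 6.94 CPM of the mesothelium list. Urothelium and thin limb sums overlapped between the sets. They were 3.25 to 38.4 and 74.4 to 229 CPM in the libraries named above, and 0.118 to 43.6 and 6.88 to 170 in the other 31. The thin limb list was mostly Slc14a2 in bulk (median 62.1 CPM), beside Bst1 (7.46) and Slc4a11 (7.76). In nuclei its sum was highest in the class labelled MPC (11500 CPM), above DTL1 (3030), so the list did not mark thin limb classes alone. The part of these lists in the Aldh1a3 values was not tested.

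Rarb, the retinoic acid receptor whose own promoter holds the repeat shown above, was not called at 48 h or 72 h. At 24 h shams held 3.31 to 5.62 CPM and UNx libraries 4.44 to 6.10, a log2 fold change of 0.18 (SE 0.130). At 48 h it was −0.07 (SE 0.126, edgeR adjusted p = 0.692) and at 72 h −0.22 (SE 0.216, edgeR adjusted p = 0.669). At 72 h UNx replicate 6 had the highest value, 15.5 CPM, with the next UNx library at 8.68.

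Cyp26b1, which hydroxylates and so clears retinoic acid, had differences of opposite sign at 48 h and 72 h. At 24 h shams held 3.72 to 11.6 CPM (median 10.5) and UNx libraries 1.68 to 11.5 (median 4.04), overlapping, with a log2 fold change of −0.80 (SE 0.409). At 48 h it rose, from 1.54 to 5.32 CPM in shams (median 2.33) to 2.10 to 27.2 in UNx libraries (median 15.2), means of 2.79 ± 1.34 and 14.9 ± 10.2 (SD, n = 6). The log2 fold change was 2.41 (SE 0.496, edgeR adjusted p = 0.00294), with 5 of 6 UNx libraries above the sham mean.

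The 48 h UNx libraries fell into a wide range, with replicate 4 at 2.10 CPM and replicate 6 at 6.77. The call held in all 12 fits that left out 1 library, at 2.16 to 2.70 (edgeR adjusted p between 0.00117 and 0.00839). Without UNx replicates 1 to 5 the log2 fold change was 1.28 and not called (edgeR adjusted p = 0.299), and with the profile score within the time point it was 1.55 and not called (edgeR adjusted p = 0.432).

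At 72 h Cyp26b1 held 5.42 to 29.1 CPM in shams (median 14.7) and 1.15 to 10.8 in UNx libraries (median 3.81), means of 14.9 ± 8.15 and 4.93 ± 3.97 (SD, n = 6). All 6 UNx libraries were below the sham mean, with a log2 fold change of −1.61 (SE 0.510) that was not called in edgeR (adjusted p = 0.126) and was called by limma voom at −2.28 (adjusted p = 0.0248). The 2 sham groups of batch 2 themselves stood apart, with means of 2.79 CPM at 48 h and 14.9 at 72 h.

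The difference between the UNx effects of 72 h and 48 h was tested over all 36 libraries. Cyp26b1 differed by −4.03 on the log2 scale (SE 0.754, edgeR adjusted p = 0.000711) and Dhrs3 by −0.56 (SE 0.159, edgeR adjusted p = 0.0160), both called in all 24 fits without 1 library. Aldh1a7 (−0.32, edgeR adjusted p = 0.479) and Aldh1a1 (−0.41, edgeR adjusted p = 0.438) were not called, nor were the other 5 members. With the profile score as a covariate, Cyp26b1 had −3.30 (edgeR adjusted p = 0.683) and Dhrs3 −0.31 (edgeR adjusted p = 0.754), and neither was called.

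With the profile score as a covariate within 24 h, where it did not overlap between the groups, the log2 fold changes were 2.06 for Aldh1a7, 1.86 for Aldh1a1, −0.83 for Dhrs3, 0.11 for Rdh10, 0.11 for Cyp26b1 and −0.68 for Aldh1a2. Those of Rdh10, Cyp26b1 and Aldh1a2 thus depend on how that score is treated.

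Differences from the 24 h effect contain the contrast that chose the members and are given without a test. From 24 h to 48 h the effect moved by −0.73 (SE 0.281) for Aldh1a7 and −0.59 (SE 0.335) for Aldh1a1, and by 0.88 (SE 0.159) for Dhrs3 and 3.24 (SE 0.753) for Cyp26b1. From 24 h to 72 h Aldh1a7 moved by −1.05 (SE 0.280) and Aldh1a1 by −1.01 (SE 0.334). For Rbp4 the 48 h against 24 h value was −4.38 (SE 1.32), and the 24 h UNx libraries include replicate 4 at 3.07 CPM. This difference was not refitted without that library.

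Counts of called members are read against all genes tested. At 24 h, 4 of 8 tested members passed the threshold, beside 27.3% of all genes, and 4 of 8 had groups that did not overlap, beside 10.4%. These shares are not read, since this contrast chose the members. At 48 h, 2 of 9 members were called (Aldh1a7 and Cyp26b1), below the 32.9% of all genes, and 0 of 9 had groups that did not overlap, beside 11.0%. At 72 h, 0 of 9 were called by edgeR, beside 1.71% of all genes (2515 genes had an unadjusted p under 0.05, and limma voom called 2 members), and 0 of 9 did not overlap, beside 2.05%.

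For differences between times, 2 of 9 members passed between 72 h and 48 h, beside 14.6% of all genes. In the contrasts that hold the 24 h effect, the share of all genes called was 37.0% for 48 h against 24 h and 4.15% for 72 h against 24 h, and members were not counted there.

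The rest of the pathway was followed in 6 lists of 62 other genes. At 24 h 13 of 45 tested list genes were called (28.9%), 8 higher and 5 lower, at 48 h 10 of 45 (22.2%), 7 higher and 3 lower, and at 72 h 1 of 46 (2.17%). These shares were near or below the background of each time. Over all genes tested, 0 were called at 48 h without UNx replicates 1 to 5 or with the profile score within the time point, and 50 at 24 h with that score. The fit without replicates 1 to 5 has 1 UNx library against 6 shams, and list genes were not refitted one by one. The median log2 fold change over the lists was −0.00545, 0.0259 and −0.0246, beside 0.00537, −0.0398 and −0.00415 over all genes.

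Among 10 genes of retinoid uptake and binding, 6 were tested at each time, of which 2, 3 and 1 were called. Ttr, transthyretin, the plasma partner of RBP4, rose at all 3 times without overlap. It went from 48.5 to 81.9 CPM at 24 h (log2 fold change 0.75, edgeR adjusted p = 0.000534), from 66.0 to 183 at 48 h (1.47, edgeR adjusted p = 0.000660) and from 74.5 to 174 at 72 h (1.23, edgeR adjusted p = 0.0144). At 24 h the summed hepatocyte markers (Alb, Apoa1, Serpina1a) were 46.6 to 87.7 CPM in shams (median 67.4) and 55.3 to 109 in UNx libraries (median 61.6). They were 25.5 to 87.4 and 52.4 to 138 at 48 h, and 26.1 to 60.8 and 46.7 to 77.0 at 72 h. Serpina1a made up most of this sum, with a median of 51.2 CPM over all libraries, beside 4.79 for Alb and 0.687 for Apoa1. The part of these markers in the Ttr values was not tested.

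Stra6, the cell surface receptor for retinol-bound RBP4, fell at 24 h from 2.01 to 1.04 CPM (log2 fold change −0.95, edgeR adjusted p = 0.00609) and at 48 h from 6.09 to 2.49 (−1.27, edgeR adjusted p = 0.0427). Lrp2, megalin, the tubular receptor that takes back filtered carriers, fell at 48 h from 2504 to 1820 CPM (−0.46, edgeR adjusted p = 0.00561).

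Of 9 tested retinol and retinal oxidoreductases, 3 were called at 24 h, all higher, and 3 at 48 h, 2 of them higher. Rdh16, a retinol dehydrogenase, rose at 24 h from 122 to 149 CPM (log2 fold change 0.29, edgeR adjusted p = 0.000938), and Rdh14 rose by 0.20. Rdh13 rose at 24 h by 0.35 (edgeR adjusted p = 0.00485) and fell at 48 h by 0.37 (edgeR adjusted p = 0.00251). Adh1, a cytosolic alcohol dehydrogenase that oxidises retinol, rose at 48 h from 293 to 447 CPM (0.61, edgeR adjusted p = 0.00643), and Dhrs4 rose by 0.32.

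Of 6 tested enzymes of retinyl esters, carotenoids and retinal, 2 were called at 24 h and 2 at 48 h. Lrat, which makes retinyl esters for storage, fell at 24 h from 3.41 to 1.91 CPM (log2 fold change −0.83, edgeR adjusted p = 0.00110), and Dgat1 rose by 0.42. Aldh8a1, an aldehyde dehydrogenase known for its activity on 9-cis-retinal, rose at 48 h from 291 to 374 CPM (0.36, edgeR adjusted p = 0.00279), as did Bco1, which cleaves carotene, by 0.60.

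Of 4 tested receptor genes, 2 were called at 24 h and 1 at 48 h. Rara, which encodes the retinoic acid receptor RARα, fell at 24 h from 23.0 to 16.9 CPM (log2 fold change −0.45, edgeR adjusted p = 0.00165) and rose at 48 h from 16.0 to 21.9 (0.45, edgeR adjusted p = 0.00692). Rxrb fell at 24 h by 0.15. In the list of hydroxylases and retinoic acid responsive genes, Rarres2 rose at 24 h from 8.91 to 12.8 CPM (0.53) and Nrip1 fell by 0.19. Of 13 other aldehyde dehydrogenases, Aldh16a1 (0.23) and Aldh4a1 (0.16) rose at 24 h and Aldh3b1 (0.40) at 48 h. Over all nuclei at 24 h, Rarres2 (log2 fold change −0.69), Rara (0.44), Rxrb, Rdh16 and Rdh14 had the other sign than in bulk. Of these, only Rarres2 had groups that did not overlap. The other list genes called in bulk at 24 h had the same sign, and edgeR called no list gene in the nuclei.

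The nuclei show which deposited classes hold these transcripts. They numbered 16500, 2641 to 5342 per mouse, and 23 of the 30 deposited classes had at least 10 nuclei in every mouse. Sham 1 and UNx 1 are labelled batch 3 and sham 2 and UNx 2 batch 4. With 2 mice against 2, the smallest exact permutation p is 0.333, and no test of members is given. Summed per mouse, 0 of 19975 genes were called by edgeR (0%; 360 had an unadjusted p under 0.05, and DESeq2 called 25), and 0 of 219721 pairs of gene and class (0%; DESeq2 called 69). With the labelled batch as a block, 207 genes (1.04%) were called over all nuclei.

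Over all nuclei, Aldh1a7 held 1.32 and 4.63 CPM in shams and 3.55 and 11.5 in UNx mice, from 59, 164, 176 and 434 UMIs. Within batch 3 the UNx mouse was 2.68-fold higher and within batch 4 2.48-fold, while the groups overlapped, since both batch 4 mice were above their batch 3 counterparts. Its log2 fold change of 1.43 became 0.20 without UNx 2, 0.76 without sham 1 and 2.71 without sham 2. Aldh1a1 held 3.18 and 5.95 CPM in shams and 3.31 and 7.43 in UNx mice. Of the 9 members, Dhrs3, Rdh10, Aldh1a2 and Cyp26b1 had groups that did not overlap, beside 20.3% of all genes.

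Aldh1a7 UMIs were spread thinly over many classes. The proximal tubule classes PTS1, PTS2 and PTS3 held 52.5% and 47.0% of its UMIs in shams and 73.3% and 48.2% in UNx mice. It was seen in 12 and 19 classes of the shams and 19 and 21 of the UNx mice, and the median over classes was 0.585 and 4.71 CPM in shams and 1.33 and 8.59 in UNx mice. A low level in nearly every class of the batch 4 mice is therefore part of its total, and its part in the difference was not tested.

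In PTS3, Aldh1a7 was at 0.592 and 2.77 CPM in shams and 6.95 and 11.6 in UNx mice, without overlap (log2 fold change 2.53), from 4, 11, 53 and 80 UMIs. In PTS2 it was at 2.16 and 5.19 CPM and 4.83 and 16.1, and in PTS1 at 0.983 and 5.49 and 2.42 and 8.59, both overlapping. The highest sham level was in the class labelled Uro, with 15.8 and 8.95 CPM, against 16.0 and 19.5 in UNx mice. UNx mice were above shams in 5 classes and below in 0, beside 8.40% and 11.5% of all tested pairs that lay above and below. In 3 of these 5 classes it was too low to be tested.

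**Figure D4:**
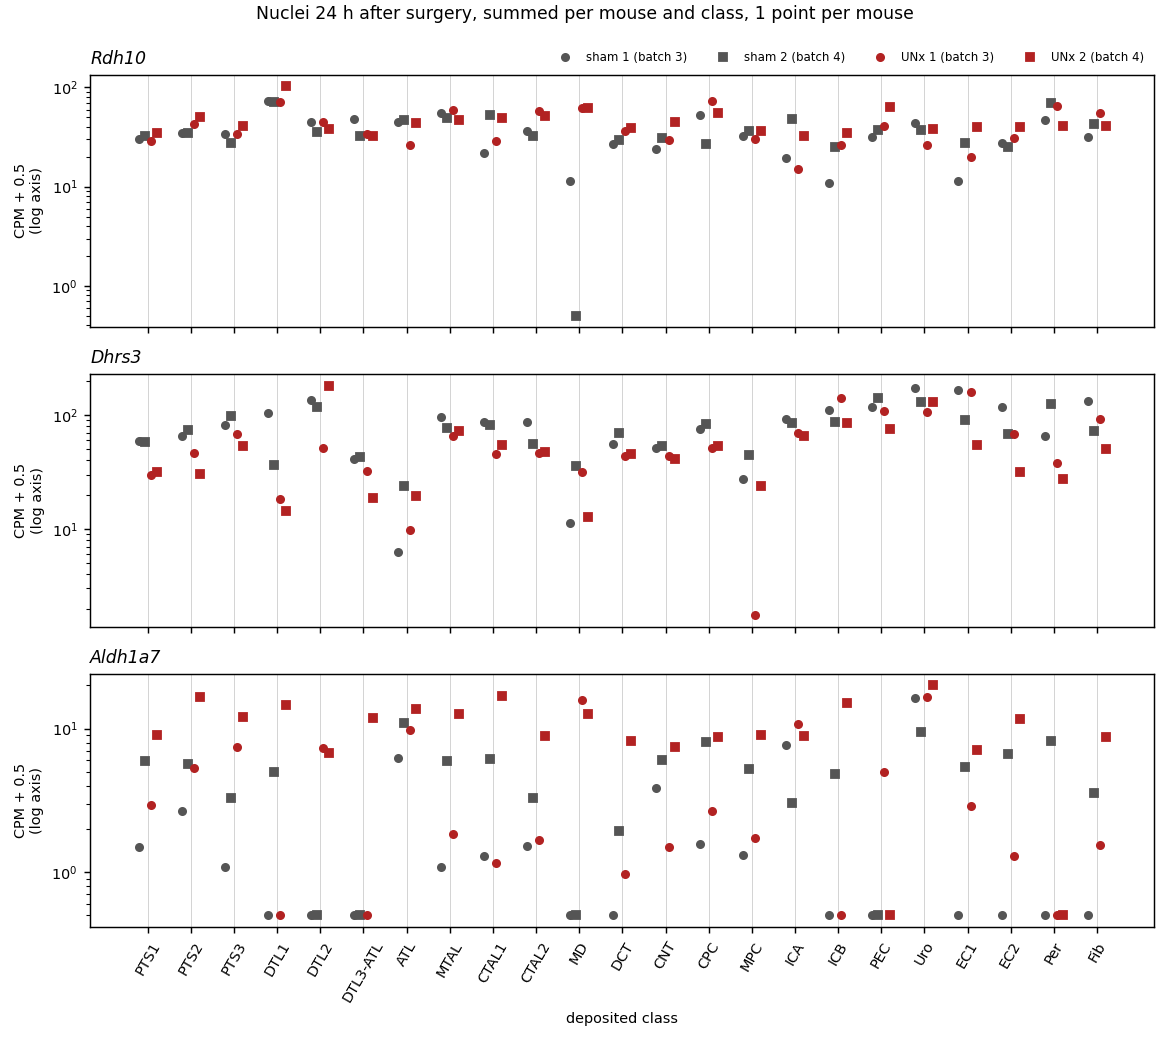
CPM (y axes, + 0.5, log axes) of Rdh10, Dhrs3 and Aldh1a7 in the 23 deposited classes (x axis), 1 point per mouse, with circles for batch 3, squares for batch 4, grey for sham and red for UNx. Dhrs3 lies lower in both UNx mice in 17 classes, and Aldh1a7 does not overlap between the groups in PTS3.

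Dhrs3 was the most widely lower member. Over all nuclei it held 75.1 and 71.0 CPM in shams and 51.5 and 46.8 in UNx mice (log2 fold change −0.50). Both UNx mice were below both shams in 17 of 23 classes, DTL1 among them where it was too low to be tested, and above in 0, beside 11.5% and 8.40% of all tested pairs. In PTS1 it was at 58.0 and 57.9 CPM in shams and 29.4 and 31.2 in UNx mice (−0.88), and in PTS2 at 64.7 and 73.3 against 46.3 and 30.0. In Uro, 1 of the 17 classes, the nearest sham and UNx values were both 130 to 3 digits.

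Rdh10 was at 33.2 and 33.4 CPM in shams and 37.9 and 41.5 in UNx mice (log2 fold change 0.33). UNx mice were above shams in 8 of 23 classes, of which MD and PEC were too low to be tested, beside 8.40% of all tested pairs. They were below in 1, the class labelled ATL, beside 11.5%. In CTAL2 it was at 35.6 and 31.6 CPM in shams and 57.2 and 51.4 in UNx mice, and in PTS2 at 34.5 and 33.9 against 42.6 and 49.6. The opposite signs of Dhrs3 and Rdh10 at 24 h were seen in bulk and in nuclei, from different mice.

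Aldh1a1 was highest in Uro, at 56.5 and 49.9 CPM in shams and 51.9 and 68.7 in UNx mice. Uro also had the highest urothelium marker sum (Upk1b, Upk3a, Krt5, Upk2), 437 CPM. In the class labelled Fib, Aldh1a1 was at 31.5 and 13.2 CPM in shams and 43.0 and 15.3 in UNx mice. In PTS3 Aldh1a1 levels were low but did not overlap, with 1.18 and 2.26 CPM in shams and 3.41 and 4.05 in UNx mice. UNx mice were above shams in 2 of 23 classes, PTS3 among them, and below in 2, beside 8.40% and 11.5% of all tested pairs. It was high enough to be tested in 7 classes, and the PTS3 value is not read as a result.

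Aldh1a2 was highest in Fib by the mean of the shams, with 55.7 and 13.7 CPM in shams and 43.0 and 10.2 in UNx mice. In the class labelled PEC it was at 22.2 and 29.3 CPM in shams and 62.7 and 58.0 in UNx mice, from 4 to 14 UMIs a mouse, which was above Fib in 3 of the 4 mice. PEC also held 1660 CPM of the proximal tubule gene Slc34a1, beside 1500 in Per, 1270 in Fib and 1160 in EC1. Proximal tubule marker RNA was counted in every class, with a median sum of 2050 CPM over classes and 4280 in PEC. Its part in the members' class values was not tested. Aldh1a3 was concentrated in MPC, at 320 and 85.3 CPM in shams and 252 and 104 in UNx mice, which was 45.6% to 84.8% of its UMIs. MPC held 571 CPM of Aqp2, the water channel of principal cells, and a principal cell marker sum of 612 CPM. The highest such sum, 841 CPM, was in CPC, where Aldh1a3 was at 11.8 and 16.3 CPM in shams and 3.23 and 8.22 in UNx mice. The mesothelium marker sum was highest in ATL (99.6 CPM) and Uro (70.8).

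**Figure D5:**
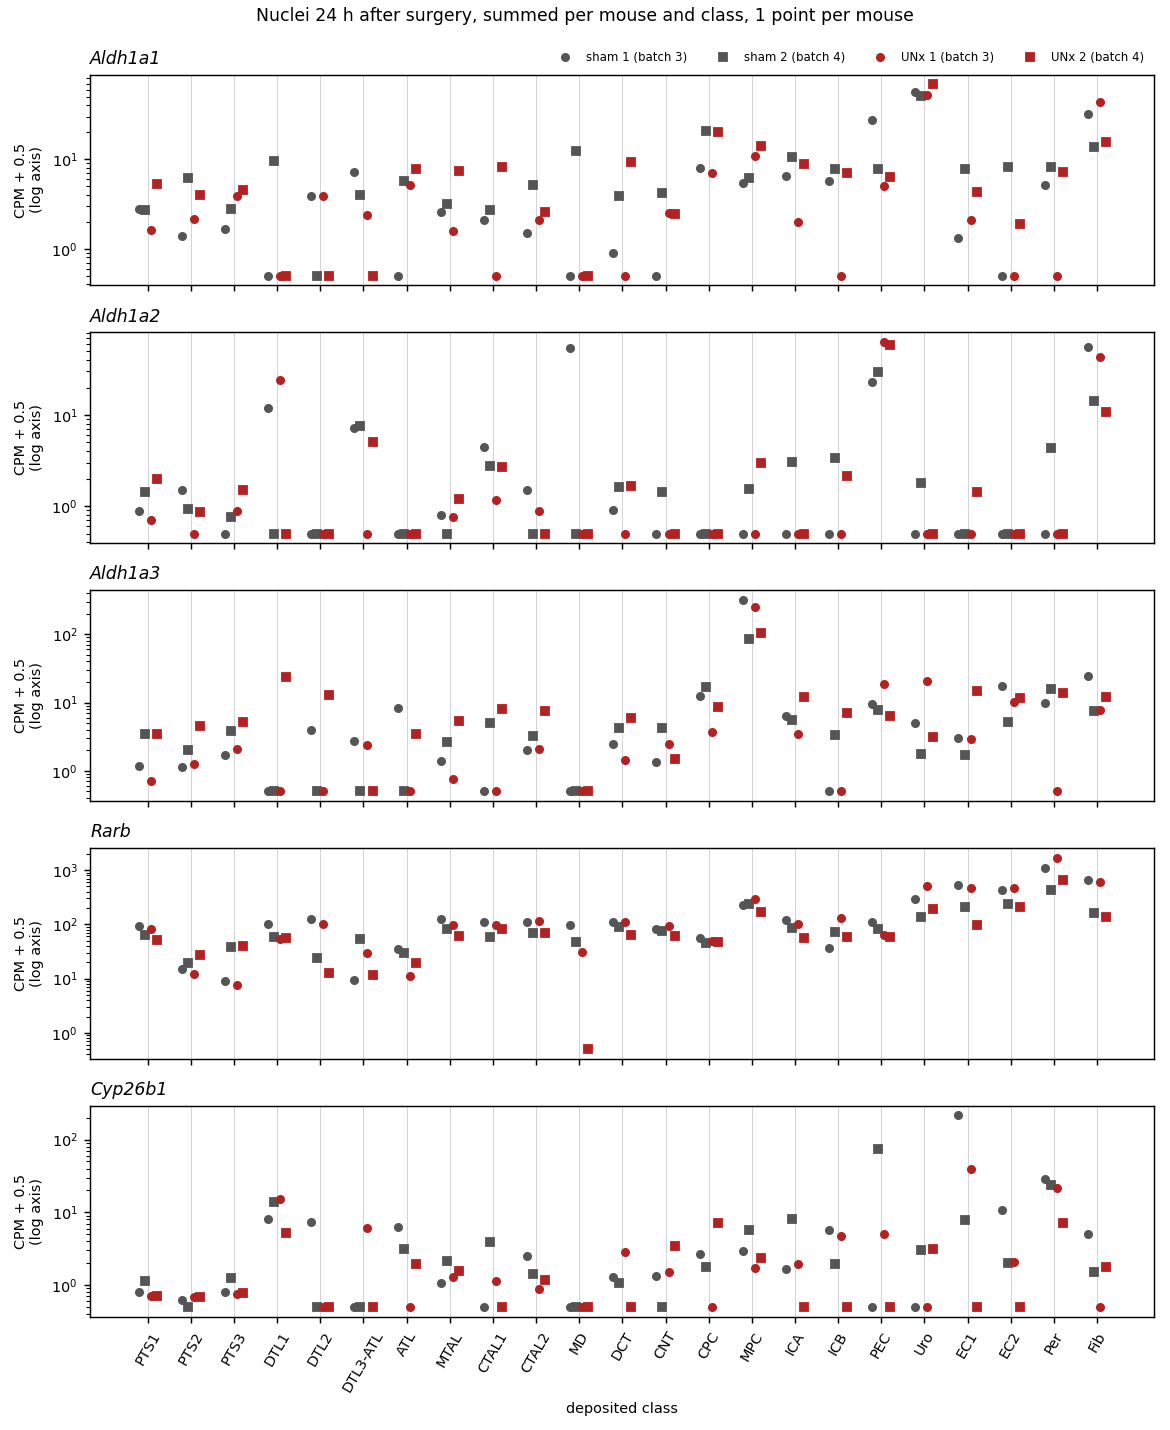
CPM (y axes, + 0.5, log axes) of Aldh1a1, Aldh1a2, Aldh1a3, Rarb and Cyp26b1 in the 23 deposited classes (x axis), 1 point per mouse, with circles for batch 3, squares for batch 4, grey for sham and red for UNx. Aldh1a3 peaks in MPC, Rarb in Per, Fib and EC1, and Cyp26b1 in EC1 of the sham mouse of batch 3.

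Rarb was highest in the class labelled Per, with 1100 and 430 CPM in shams and 1700 and 647 in UNx mice. Fib had 666 and 161 CPM in shams and 616 and 134 in UNx mice. EC1 had 534 and 209 in shams and 470 and 97.1 in UNx mice. In Per, the mural markers Pdgfrb, Acta2 and Ren1 were at 131, 3.87 and 7.21 CPM, and their sum of 142 was second to Fib (285). Of the endothelial markers, Emcn was at 1110 CPM, and Pecam1, Flt1 and Kdr were at 24.6, 56.2 and 12.1. Of the fibroblast markers, Pdgfra was at 392 CPM, and Dcn and Col1a1 were at 8.73 and 6.34. The name Per is used here as the deposited label. Batch 3 mice were higher than batch 4 mice in all 3 classes.

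Cyp26b1 in EC1, the class with the highest endothelial marker sum (5770 CPM), was at 214 and 7.36 CPM in shams and 38.5 and 0 in UNx mice, from 255, 6, 48 and 0 UMIs. A count of 0 in UNx 2 allows up to 2.83 CPM there, which covers counting error only. EC1 held 83.3% of the Cyp26b1 UMIs of sham 1 and 8.82% of those of sham 2, so the class that carries the gene differed between the shams. Over all nuclei it was at 6.86 and 1.92 CPM in shams and 1.72 and 0.661 in UNx mice (log2 fold change −1.81). Rbp4 was at 0.0404 to 0.899 CPM over all nuclei.

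With the labelled batch as a block, the log2 fold change over all nuclei was 1.44 for Aldh1a7 and −1.75 for Cyp26b1. By class it was 2.63 for Aldh1a7 in PTS3, −0.88 and −0.85 for Dhrs3 in PTS1 and PTS2, and −2.55 for Cyp26b1 in EC1. These values are a description, since the nuclei contrast chose Aldh1a7.

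Likeness to the pair was measured by Pearson correlation of log2 CPM, as a description. In bulk the mean of each group of operation and time was removed first, so these values do not hold the differences between groups. In nuclei the 2 sham mice were averaged within each class. The median class level in shams was 2.77 CPM for Aldh1a7 and 4.1 for Aldh1a1, from few UMIs in many classes. Over the 36 bulk libraries, the genes most like Aldh1a7 among 13873 were Gbe1 (r = 0.78), Mgst1 (0.74), Glul (0.718), Eef1g (0.696) and Bola2 (0.682). For Aldh1a1 they were Aldh1a7 (0.667), Gm10639 (0.635), Cbr1 (0.62), Rpl23 (0.618) and Spink8 (0.603). Across the 23 classes of nuclei, where points share mice, depth and batch, Aldh1a7 was most like Fbxl13 (0.783), Ythdf1 (0.767), Zbtb33 (0.746), 4833438C02Rik (0.739) and Polr2e (0.728) among 14924 genes, and Aldh1a1 most like Ano1 (0.846), Igdcc4 (0.818), Copg1 (0.805), Sorcs2 (0.778) and Synj2 (0.777).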

How the data were processed

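Bulk libraries were made with a stranded polyadenylated RNA kit and read as pairs of 150 bases, per the labels' protocols. The authors deposited raw estimated counts per gene. Tools in the submitters' processing notes are Salmon 1.5.0, FastQC 0.11.8 and R 4.10, and the build is GRCm39. Nuclei sorted by a DNA stain were run on droplets that read the 3' end, and the deposited table holds estimated UMI counts, with alevin, Seurat and mm10 named in those notes without settings. Not whole were 34.1% of bulk values and 13.9% of nucleus values above 0, and estimated counts were rounded before testing (nuclei after summing).

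Genes were tested with edgeR 4.0.16 in R 4.3.3 (quasi-likelihood, filterByExpr, TMM, two-sided) over all genes of the table within the 12 libraries of a time point, and called where p, adjusted after Benjamini-Hochberg, was under 0.05. Differences between times came from 1 fit over 36 libraries. Nuclei were summed per mouse and deposited class. The authors' classes were used as given, no doublet caller was run, and 18 barcodes occurred in 2 or more mice. DESeq2 1.42.0 and limma 3.58.1 (voom) served as alternatives, with the alternatives in the closing part. Scripts were tested on simulated counts. Symbols, lengths and coordinates are from GENCODE M21 (GRCm38); 127 bulk genes had no symbol.

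Named are all 9 members, the called genes of each list (at most 4 per list and time by p), and the 5 genes most like Aldh1a7 and Aldh1a1. The members and lists were chosen with earlier results of these data known. Over 90 pairs of replicates the lowest chi-square per gene was 5.36, so each library counts once. Replicate numbers of the nuclei mark labelled batches, and same-numbered mice deviated together (r = 0.806). Mice are separate animals per the labels, so p-values measure the spread between mice.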

Additional observations from a re-analysis of the deposited data

Results flagged for a closer look

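Of 54 groups of 6 libraries (9 genes, 3 times, 2 groups), 11 held a library far from the others by Dixon's criterion. Chance flags about 1 in 20 where values are normally distributed. The criterion was applied to CPM without a log, and the genes share libraries, so the 11 are not read against that rate. Values are CPM. UNx replicate 1 of 48 h had 15.16 of Aldh1a1 against a next value of 7.03. UNx replicate 6 of 72 h stood out in 3 genes, with Aldh1a1 at 9.17 (next 6.507), Aldh1a3 at 71.95 (next 1.796) and Rarb at 15.51 (next 8.68). Its principal cell marker sum of 726 was the highest of all libraries, and the part of this in the 3 values was not tested.

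Sham replicate 5 of 72 h had the lowest Aldh1a2, 2.567 (next 3.747), and the highest Aldh1a3, 95.0 (next 17.42). UNx replicate 2 of 48 h had 38.74 of Aldh1a3 (next 6.773), and sham replicate 1 of 48 h had 54.21 of Rdh10 (next 41.71). Rbp4 stood out in UNx replicate 4 of 24 h at 3.074 (next 0.2387), sham replicate 3 of 48 h at 3.036 (next 0.815) and UNx replicate 5 of 72 h at 1.554 (next 0.5019).

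The UNx effect differed between 72 h and 48 h for Cyp26b1, by −4.029 on the log2 scale, and for Dhrs3, by −0.5566. Both differences were tested, as given in the report, and neither was called with the profile score as a covariate.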

How the results depend on the processing

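Gene counts called at 24 h (3852) went to 50 with the profile score within the time point, with 2 members in place of 4. At 48 h (4696) they went to 0 with that score within the time point and to 3 with it over 36 libraries. Both fits had 0 members in place of 2. Limma voom called 4 members at 48 h, where edgeR called 32.9% of all genes. The voom count over all genes at 48 h is not given here, so those 4 are not read as a result about the members. At 72 h (249) DESeq2 gave 664, voom 809 with 2 members, and the profile score 97. For 72 h against 48 h (2210 and 2 members) the profile score left 0 and 0. In the nuclei (0), DESeq2 gave 25 genes and, by class, 69 pairs, and no low-count filter 34. Leaving out 1 library gave 102 to 677 genes and 0 to 1 members at 72 h, 1653 to 3766 for 72 h against 48 h, 0 to 77 pairs in the nuclei, and share differences of 2.94 to 6.43 points at 48 h and 1.26 to 6.32 at 72 h.

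Directions that turned were small or wide values. At 48 h they were Aldh1a2 in voom (−0.0426), Dhrs3 with the profile score (−0.0710 within the time point, −0.0390 over 36 libraries) and without UNx replicates 1 to 5 (−0.15), and Rarb over 36 libraries (0.12) and without those libraries (0.000777). At 72 h Aldh1a2 turned in the 36-library fit (0.003987) and with the profile score (0.0197 and 0.0456). Leaving out 1 library, Aldh1a1 at 72 h lay between −0.0888 and 0.15, Aldh1a2 between −0.18 and 0.21 at 48 h, −0.0947 and 0.0349 at 72 h and −0.22 and 0.17 for the difference, Aldh1a3 between −4.32 and 1.05 at 72 h and −3.17 and 2.47 for the difference, and Rbp4 at 72 h between −0.997 and 0.0244. The cause was not tested.

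Bulk replicate numbers only name mice: same-numbered deviations correlated at −0.167 to 0.0256 at 24 h, −0.158 to 0.0749 at 48 h and −0.328 to 0.11 at 72 h, with 0, 0 and 1 library closest to its own number. A replicate block gave 3186, 4404 and 120 called genes. In the nuclei, where numbers mark batches, the replicate block gave 207 genes (1.04%) over all nuclei and 1595 of 219721 pairs of gene and class. Members are not counted there, since the nuclei contrast chose Aldh1a7.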
